A study of Homo sapiens with 20 samples.

Results

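The RNA-seq counts of human melanoma cells were searched for 31 genes of cholesterol and fatty acid synthesis, chosen by their symbols, and all 31 were found among the 58870 genes of the table. They comprised 7 genes of the mevalonate pathway and its acetyl-CoA supply, 11 genes of the steps from farnesyl diphosphate through squalene to cholesterol, 4 genes of the SREBP control system, 2 genes of sterol transport and 7 genes of fatty acid synthesis and desaturation. A375 and 1205Lu cells received either non-targeting siRNAs (si-NT) or siRNAs that target FRA1 (si-FRA1). Each of the 4 groups held 3 samples, and the question was how FRA1 silencing changes these genes in each cell line. FRA1, encoded by FOSL1, is a subunit of the AP-1 transcription factor. FRA1 occupancy was measured in the same cell lines by Cut&Run, in which an antibody directs a nuclease to the bound chromatin, with 3 FRA1 samples and 1 IgG sample per line. Both melanoma lines were grown in RPMI-1640 with fetal bovine serum. The time and dose of the siRNAs are not given in the sources used here, and an effect of these siRNAs on transcripts other than FOSL1 cannot be told apart from an effect of FRA1 loss.

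Cells make cholesterol from acetyl-CoA through mevalonate, isoprenoid diphosphates and squalene, and they make palmitate from acetyl-CoA and malonyl-CoA before it is elongated and desaturated. Most of these genes are targets of the SREBP transcription factors, which are held in the endoplasmic reticulum by INSIG proteins when sterols are plentiful and are escorted by SCAP to the Golgi when sterols are scarce. The liver X receptors act on the other side of the balance and activate genes of sterol export such as ABCA1 when oxysterols accumulate.

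Total counts per sample ranged from 20573412 to 32518903, and replicates varied with a biological coefficient of variation of 4.51% in A375 and 4.20% in 1205Lu. With si-FRA1, 6.22% of the si-NT level of FOSL1 remained in A375 and 14.1% in 1205Lu. The melanocyte marker SOX10 was expressed in both lines, at 32.0 to 44.3 CPM (counts scaled to a common library size after TMM normalization) in A375 cells and 776 to 929 CPM in 1205Lu cells. CSPG4 and PAX3 were likewise expressed in both and higher in 1205Lu. MITF went the other way, at 49.9 to 67.2 CPM in A375 and 2.77 to 4.06 CPM in 1205Lu. S100B and S100A1 did not exceed 1.88 and 3.30 CPM in A375 but reached 434 and 192 CPM in 1205Lu. The pigment genes MLANA, PMEL, TYR and DCT did not exceed 1.38 CPM in any sample. The summed level of 17 markers of epithelial, immune, endothelial, erythroid, liver and fat cells lay between 3.01 and 5.74 CPM over all samples.

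The regions upstream of 5 members are shown because the results below turn on them: HMGCS1 differed most between the lines among the genes that were lower in 1205Lu, INSIG1, STARD4 and ABCA1 rose most upon silencing in A375, and SREBF2 encodes the SREBP of cholesterol synthesis. Sequences are from RefSeq on GRCh38.p14, written on the strand of the gene, and end before the first annotated exon base. Capitals mark CCAAT boxes on either strand (CCAAT or ATTGG) and the sterol regulatory element TCACNCCAC.
HMGCS1 (chr5:43313513-43313662, minus strand): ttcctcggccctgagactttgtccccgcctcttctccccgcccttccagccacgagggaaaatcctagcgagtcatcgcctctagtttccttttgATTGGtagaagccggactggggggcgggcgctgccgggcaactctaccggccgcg
INSIG1 (chr7:155297628-155297775, plus strand): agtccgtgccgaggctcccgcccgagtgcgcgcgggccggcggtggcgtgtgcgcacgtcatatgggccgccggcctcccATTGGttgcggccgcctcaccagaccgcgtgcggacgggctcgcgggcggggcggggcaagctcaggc
STARD4 (chr5:111512591-111512785, minus strand): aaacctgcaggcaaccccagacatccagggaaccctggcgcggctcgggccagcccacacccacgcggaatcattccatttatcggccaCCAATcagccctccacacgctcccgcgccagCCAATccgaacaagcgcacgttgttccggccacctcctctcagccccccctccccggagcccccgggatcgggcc
ABCA1 (chr9:104928156-104928405, minus strand): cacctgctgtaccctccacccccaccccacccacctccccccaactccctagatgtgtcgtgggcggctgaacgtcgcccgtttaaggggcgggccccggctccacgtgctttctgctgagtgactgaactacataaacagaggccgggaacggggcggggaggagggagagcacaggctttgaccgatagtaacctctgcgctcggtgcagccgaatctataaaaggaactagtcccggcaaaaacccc
SREBF2 (chr22:41832855-41833104, plus strand): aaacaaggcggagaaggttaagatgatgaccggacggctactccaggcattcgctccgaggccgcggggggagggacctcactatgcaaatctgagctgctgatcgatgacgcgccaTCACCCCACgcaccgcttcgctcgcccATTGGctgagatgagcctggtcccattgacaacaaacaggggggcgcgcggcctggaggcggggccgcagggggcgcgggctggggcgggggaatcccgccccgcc

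RefSeq promoter windows of 250 bases before to 50 bases after a transcription start were available here for 27 of the 31 members. Windows of FASN, ACAT2, FDFT1 and SQLE were not among the sequences used, so the shares below leave these genes out. A CCAAT box was present at a start of 20 of these 27 members (74.1%) and of 39.7% of the 27305 genes with such a window. The sterol element TCACNCCAC was present for 1 member, SREBF2, and for 1.39% of all genes, and the E-box CACGTG was present for 5 members (ABCA1, INSIG1, LSS, SC5D and SCAP) and for 8.77% of all genes. The AP-1 motif (TGACTCA or its reverse complement TGAGTCA) was found in the window of 0 members and of 6.05% of all genes. Motifs were searched on both strands, a gene with several starts was counted once, and only presence was counted. These shares describe letters in the windows and not bound sites.

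Before silencing, the pathway as a whole was expressed at a lower level in 1205Lu than in A375 cells. Of the 31 members, 27 were lower in 1205Lu with si-NT, 3 were higher and 1 did not pass (edgeR quasi-likelihood test, Benjamini-Hochberg adjusted p under 0.05), with a median log2 difference of -1.40. The lines differed in most of their genes: 78.0% of 18050 tested genes passed, 38.8% higher and 39.2% lower in 1205Lu, but the median over all of them was 0.00. A log2 difference under -1 was reached by 23 members (74.2%) and by 18.9% of all genes. The values of the lines did not overlap for any of the 31 members, but how many of all genes were separated in this way was not counted. In bulk RNA, fewer cells that express a gene and less RNA of it per cell cannot be told apart. The summed level of the members was 6395 ± 24.6 CPM in A375 and 2604 ± 4.89 CPM in 1205Lu (SD, n = 3).

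All 7 genes of the mevalonate pathway were lower in 1205Lu. HMGCS1, the cytosolic HMG-CoA synthase, was at 204, 209 and 207 CPM in the A375 si-NT samples and at 24.0, 27.4 and 25.1 CPM in the 1205Lu si-NT samples. Its log2 difference of -2.95 (SE 0.04, edgeR adjusted p = 4.19e-22) was the lowest of the members. The other log2 differences of this group ranged from -1.87 for FDPS, the farnesyl diphosphate synthase, to -0.37 for PMVK, the phosphomevalonate kinase. Between them lay ACAT2, the cytosolic thiolase that supplies acetoacetyl-CoA, at -1.78, the mevalonate kinase MVK at -1.46, the isomerase IDI1 at -1.23 and the decarboxylase MVD at -0.62.

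Of the 11 genes from squalene to cholesterol, 9 were lower and 2 were higher in 1205Lu. SQLE, the squalene epoxidase, was at 101, 99.5 and 97.4 CPM in A375 and at 16.6, 17.2 and 15.5 CPM in 1205Lu, a log2 difference of -2.52 (SE 0.05, edgeR adjusted p = 7.19e-20). EBP, the sterol isomerase, HSD17B7, a keto-reductase of sterol demethylation, and MSMO1, the methylsterol monooxygenase, followed at -2.40, -2.23 and -1.998. The log2 differences of FDFT1 (squalene synthase), DHCR7 (7-dehydrocholesterol reductase), NSDHL (a sterol dehydrogenase) and LSS (lanosterol synthase) were similar, at -1.47, -1.42, -1.42 and -1.40. TM7SF2, a sterol reductase, had the lowest level per kilobase of exon of all members in both lines and a log2 difference of -0.76. The exceptions were the lanosterol demethylase CYP51A1 and the desaturase SC5D. CYP51A1 was at 108, 113 and 113 CPM in A375 and at 184, 178 and 179 CPM in 1205Lu, a log2 difference of 0.77 (SE 0.03, edgeR adjusted p = 1.25e-14). Other annotated coding genes overlap CYP51A1, TM7SF2 and EBP on the same strand, so reads there may not be separable and these values are uncertain. SC5D was at 31.4, 31.8 and 34.9 CPM in A375 and at 49.3, 48.5 and 49.1 CPM in 1205Lu, a log2 difference of 0.66 (SE 0.05, edgeR adjusted p = 5.49e-10). The values per sample of HMGCS1, SQLE, CYP51A1 and SC5D were chosen for display after they were seen.

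All 4 genes of SREBP control were lower in 1205Lu, with log2 differences of -1.32 for SREBF2, -1.16 for SREBF1, the SREBP gene tied most closely to fatty acid synthesis, -1.14 for INSIG1 and -0.58 for SCAP. All 7 genes of fatty acid synthesis and desaturation were lower as well, by log2 values from -2.24 for FADS1, the delta-5 desaturase, to -1.10 for ACLY, which makes cytosolic acetyl-CoA from citrate. SCD, the delta-9 desaturase, and FASN, the fatty acid synthase, stood at the top of both lines when levels were divided by exon length. SCD was at 258 ± 3.87 CPM per kilobase in A375 and 85.6 ± 1.04 in 1205Lu, and FASN was at 187 ± 0.668 and 76.0 ± 1.23 CPM per kilobase (SD, n = 3). ACLY ranked next in A375, whereas CYP51A1 ranked next in 1205Lu, at 43.2 ± 0.724 CPM per kilobase. Exon lengths came from GENCODE v44, a later release than that used for counting.

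ABCA1, the exporter of cholesterol and phospholipid, ran opposite to the synthesis genes. It was at 17.2, 17.8 and 18.0 CPM in A375 and at 152, 155 and 150 CPM in 1205Lu with si-NT. Its log2 difference was 3.18 (SE 0.04, edgeR adjusted p = 1.01e-22), which is 9.06-fold. STARD4, a cytosolic sterol carrier, was the member that did not pass, with a log2 difference of -0.15 (SE 0.07, edgeR adjusted p = 0.054), although its 3 values per line did not overlap.

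**Figure D1:**
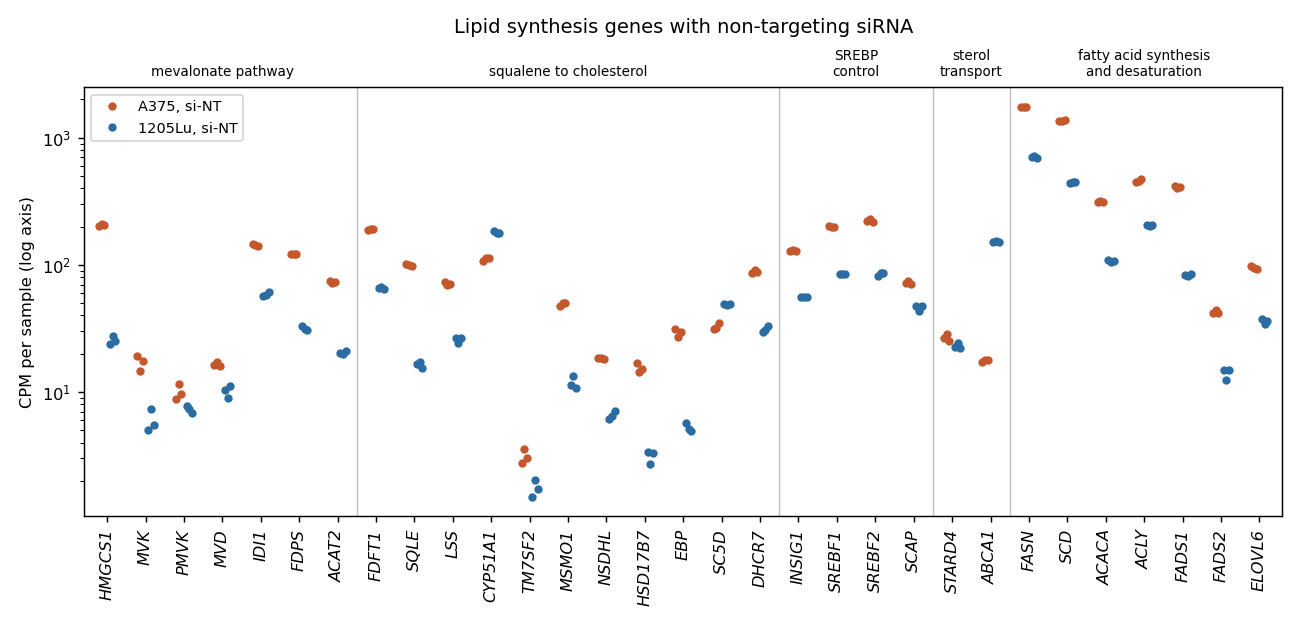
Levels of the 31 members in the si-NT samples, in CPM on a log axis, with 3 points per gene and cell line (A375 and 1205Lu) and genes ordered by role. The 1205Lu points lie below the A375 points for all members other than CYP51A1, SC5D and ABCA1, and the gap is narrow for STARD4 and PMVK.

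In A375 cells, FRA1 silencing moved members in both directions and by small amounts. Of the 31 members, 14 rose, 11 fell and 6 did not pass, and the median log2 fold change (si-FRA1 over si-NT) was 0.06. In the same fit 50.8% of 16899 genes passed, 25.7% higher and 25.1% lower. ABCA1 was the only member with an absolute log2 fold change over 1, a limit that 5.56% of all genes passed. The summed level of the members was 6309 ± 65.7 CPM with si-FRA1 (SD, n = 3), beside 6395 ± 24.6 with si-NT.

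The sterol transport genes and INSIG1 rose most in A375. ABCA1 was at 36.8, 36.9 and 35.5 CPM with si-FRA1, above the 17.2 to 18.0 CPM of si-NT, a log2 fold change of 1.04 (SE 0.06, edgeR adjusted p = 6.22e-13). INSIG1 rose from 129, 131 and 129 CPM to 223, 220 and 216 CPM, a log2 fold change of 0.76 (SE 0.03, edgeR adjusted p = 3.49e-17). STARD4 rose from 26.4, 28.8 and 25.2 CPM to 43.4, 40.03 and 43.9 CPM, a log2 fold change of 0.66 (SE 0.06, edgeR adjusted p = 1.95e-09). For each of these genes every si-FRA1 sample lay above every si-NT sample. Such separation was common: in A375 it held upwards for 15 and downwards for 12 of the 31 members. How many of all genes were separated in this way was not counted. ABCA1 is a liver X receptor target, whereas INSIG1 and STARD4 are known SREBP targets. The other SREBP control genes fell: SREBF2 by 0.36, SCAP by 0.16 and SREBF1 by 0.11 on the log2 scale.

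Fatty acid genes were split in A375, with 5 higher, 2 lower and 0 that did not pass. FASN fell from 1746, 1738 and 1750 CPM to 1258, 1230 and 1225 CPM, a log2 fold change of -0.50 (SE 0.01, edgeR adjusted p = 4.36e-19) and the lowest value of the 31 members. FADS2, the delta-6 desaturase, fell by 0.20 on the log2 scale, and FEN1, a coding gene, overlaps it on the same strand. SCD rose from 1342, 1346 and 1379 CPM to 1542, 1519 and 1513 CPM, a log2 fold change of 0.16 (SE 0.01, edgeR adjusted p = 1.03e-09). The samples of the treatments did not overlap for either FASN or SCD, as for most members in A375. FADS1 rose from 416, 405 and 412 CPM to 498, 508 and 484 CPM, a log2 fold change of 0.27 (SE 0.02, edgeR adjusted p = 1.35e-10). ELOVL6, which elongates palmitate, rose from 97.5, 93.9 and 93.3 CPM to 113, 116 and 115 CPM, a log2 fold change of 0.27 (SE 0.03, edgeR adjusted p = 2.24e-07). ACLY rose by 0.21 and ACACA, the acetyl-CoA carboxylase that makes malonyl-CoA, by 0.09 on the same scale.

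In the mevalonate pathway 1 gene rose (IDI1, log2 fold change 0.14), 3 fell (HMGCS1 by 0.22, FDPS by 0.25 and PMVK by 0.28 on the log2 scale) and 3 did not pass, namely MVK at 0.16, MVD at 0.03 and ACAT2 at 0.03. PMVK had an adjusted p of 0.0464 from edgeR and lost its call in 10 of 12 alternative analyses. From squalene to cholesterol, 5 genes rose: SC5D by 0.35, NSDHL by 0.31, DHCR7 by 0.17, CYP51A1 by 0.13 and SQLE by 0.10 on the log2 scale. HSD17B7, EBP and LSS fell, by 0.36, 0.36 and 0.27 on the log2 scale, and FDFT1, MSMO1 and TM7SF2 did not pass. TM7SF2 had a log2 fold change of -0.42 with an SE of 0.20 at 2.14 to 3.56 CPM.

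In 1205Lu cells, the members that passed were nearly all lower with si-FRA1. Of the 31 members, 18 fell, 1 rose and 12 did not pass, with a median log2 fold change of -0.18. In this fit 40.5% of 17136 genes passed, 20.6% higher and 19.9% lower, with a median of -0.00 over all genes. None of the 31 members passed an absolute log2 fold change of 1, which 3.13% of all genes did. The summed level of the members was 2604 ± 4.89 CPM with si-NT and 2293 ± 21.0 CPM with si-FRA1 (SD, n = 3).

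The fatty acid genes fell as a group in 1205Lu, with 7 of 7 lower. ELOVL6 fell from 37.4, 34.1 and 36.3 CPM to 25.6, 25.3 and 26.1 CPM, a log2 fold change of -0.51 (SE 0.06, edgeR adjusted p = 5.21e-07). FADS1 fell from 82.9, 81.2 and 84.0 CPM to 64.8, 64.7 and 64.5 CPM, a log2 fold change of -0.37 (SE 0.04, edgeR adjusted p = 8.39e-08). SCD fell from 443, 452 and 452 CPM to 366, 377 and 374.5 CPM, a log2 fold change of -0.29 (SE 0.02, edgeR adjusted p = 1.49e-10). None of these samples overlapped between the treatments. In 1205Lu such separation held downwards for 18 and upwards for 2 of the 31 members, and its share over all genes was not counted. FASN went from 710, 719 and 697 CPM to 613, 612 and 602 CPM, a log2 fold change of -0.24 (SE 0.02, edgeR adjusted p = 1.33e-09). FADS2, ACLY and ACACA fell by 0.26, 0.22 and 0.17 on the log2 scale. FADS2 was the least secure of them: its samples overlapped, its edgeR adjusted p was 0.0485 and it lost its call in 9 of 12 alternative analyses.

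Of the mevalonate genes, 5 of 7 fell in 1205Lu and 0 rose. ACAT2 fell from 20.2, 19.9 and 21.0 CPM to 14.5, 13.1 and 14.5 CPM, a log2 fold change of -0.55 (SE 0.08, edgeR adjusted p = 8.35e-06). MVD went from 10.4, 8.97 and 11.1 CPM to 5.88, 6.24 and 8.93 CPM, a log2 fold change of -0.55 (SE 0.15, edgeR adjusted p = 0.00489). The highest MVD value with si-FRA1 lay just under the lowest with si-NT. FDPS, PMVK and IDI1 fell by 0.43, 0.41 and 0.16 on the log2 scale, and HMGCS1 and MVK did not pass, at 0.02 and -0.30. PMVK lost its call in 5 and IDI1 in 2 of the 12 alternative analyses.

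Of the 11 genes from squalene to cholesterol, 3 were lower, 1 was higher and 7 did not pass, beside 19.9% of all genes lower and 20.6% higher in the same fit. LSS fell from 26.6, 24.2 and 26.5 CPM to 17.8, 18.8 and 16.3 CPM, a log2 fold change of -0.56 (SE 0.07, edgeR adjusted p = 2.88e-06), the lowest value of the members in this line. CYP51A1 fell by 0.18 and FDFT1 by 0.11 on the log2 scale, and FDFT1 lost its call in 9 of 12 alternative analyses. SC5D was the member that rose, from 49.3, 48.5 and 49.1 CPM to 64.7, 68.5 and 71.1 CPM, a log2 fold change of 0.46 (SE 0.04, edgeR adjusted p = 4.12e-08). The log2 fold changes of the others were -0.40 for EBP (edgeR adjusted p = 0.0541), -0.14 for MSMO1, -0.09 for NSDHL, -0.00 for HSD17B7, 0.01 for DHCR7, 0.04 for TM7SF2 and 0.05 for SQLE.

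Of the SREBP control genes, SREBF2 fell by 0.30 on the log2 scale in 1205Lu, and INSIG1, SREBF1 and SCAP did not pass. INSIG1 was at 55.9, 56.2 and 55.8 CPM with si-NT and at 53.6, 59.1 and 60.6 CPM with si-FRA1, a log2 fold change of 0.03 (SE 0.05, edgeR adjusted p = 0.663). The sterol transport genes fell in this line. STARD4 went from 22.5, 24.3 and 22.0 CPM to 19.0, 15.9 and 15.2 CPM, a log2 fold change of -0.48 (SE 0.09, edgeR adjusted p = 0.000125). ABCA1 went from 152, 155 and 150 CPM to 133, 139 and 135 CPM, a log2 fold change of -0.18 (SE 0.03, edgeR adjusted p = 2.98e-05).

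**Figure D2:**
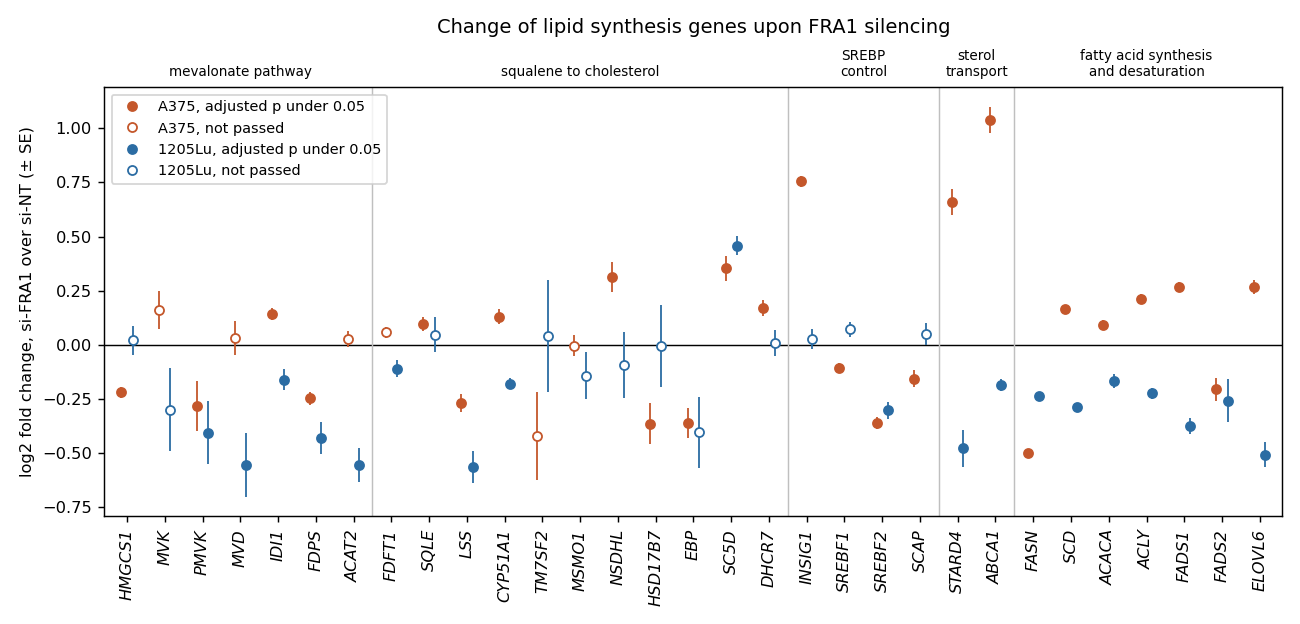
Log2 fold change of each member upon FRA1 silencing (si-FRA1 over si-NT) in A375 and 1205Lu, with bars for the SE from edgeR. Filled points passed an adjusted p of 0.05, and all 7 fatty acid genes of 1205Lu lie below 0 while 5 of the 7 in A375 lie above it.

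The responses of the lines were compared member by member. Of the 31 members, 16 passed in both lines, with 1 higher in both (SC5D), 6 lower in both (FASN, FADS2, LSS, FDPS, PMVK and SREBF2) and 9 higher in A375 but lower in 1205Lu. The 9 were ABCA1, STARD4, SCD, FADS1, ELOVL6, ACLY, ACACA, CYP51A1 and IDI1, and 0 members moved in the reverse way. Among the 15056 genes tested in both lines, 4523 passed in both. Of these, 1564 were higher in both, 1625 were lower in both, 655 were higher in A375 and lower in 1205Lu and 679 the reverse. A further 9 members passed in A375 alone, 3 (MVD, ACAT2 and FDFT1) passed in 1205Lu alone, and MVK, TM7SF2 and MSMO1 passed in neither. Of the 15056 genes, 3503 passed in A375 alone, 2155 in 1205Lu alone and 4875 in neither.

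The difference between the silencing effects was then tested as an interaction over all 12 samples. It passed for 18 of the 31 members, with 14 effects lower in 1205Lu than in A375 and 4 higher (HMGCS1, FASN, SREBF1 and SCAP). In the same test 31.9% of 19452 genes passed, 15.3% with a lower and 16.6% with a higher effect in 1205Lu. The median difference of the members was -0.17 on the log2 scale, beside 0.01 over all genes. ABCA1 differed by -1.21 (SE 0.06, edgeR adjusted p = 7.66e-15), and STARD4 by -1.12 (SE 0.11, edgeR adjusted p = 5.63e-09). They were the 2 members whose effects differed by more than 1 on the log2 scale. ELOVL6 differed by -0.76 (SE 0.06, edgeR adjusted p = 1.92e-10), INSIG1 by -0.71 (SE 0.05, edgeR adjusted p = 3.38e-11), FADS1 by -0.63 (SE 0.04, edgeR adjusted p = 8.02e-13) and SCD by -0.44 (SE 0.02, edgeR adjusted p = 2.79e-13). FASN fell in both lines, and its effect was less negative in 1205Lu by 0.28 (SE 0.02, edgeR adjusted p = 4.41e-10). For SC5D and SREBF2, which moved alike in both lines, the interaction did not pass, with differences of 0.12 (SE 0.07) and 0.07 (SE 0.05). FOSL1 mRNA was left at a higher share in 1205Lu than in A375, and its part in these differences was not tested.

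**Figure D3:**
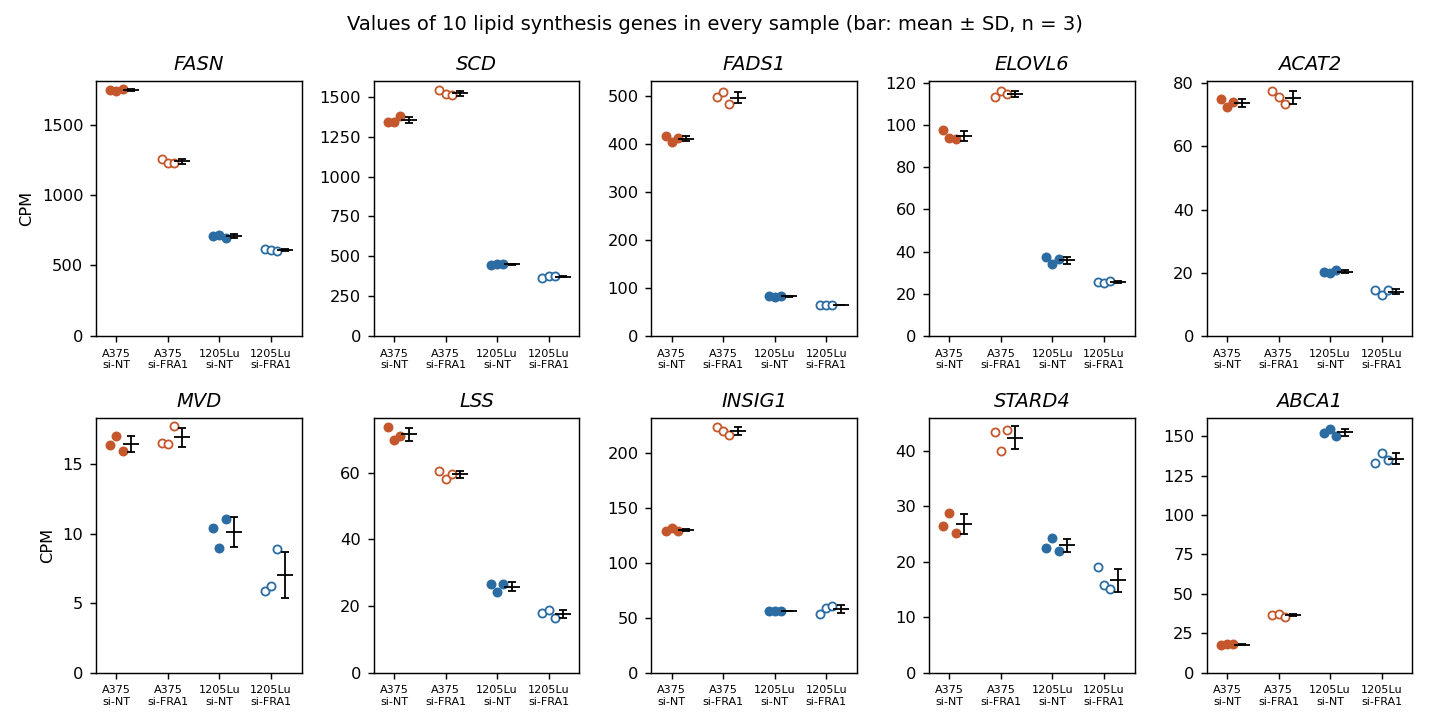
Levels in CPM of 10 members in each of the 12 samples, with filled points for si-NT, open points for si-FRA1 and black bars for the mean ± SD (n = 3). INSIG1 rises in A375 from about 129 to over 216 CPM but overlaps between treatments in 1205Lu, and ABCA1 starts far higher in 1205Lu.

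Further genes of lipid metabolism were read from 6 lists with 135 genes in all, none of them a member. In A375 cells 121 were tested, of which 50 were higher and 26 lower with si-FRA1, beside 25.7% and 25.1% of all genes. In 1205Lu cells 119 were tested, of which 20 were higher and 35 lower, beside 20.6% and 19.9% of all genes. The counts of the single lists are to be read against these shares.

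Of 20 further mevalonate and isoprenoid genes tested in A375, 8 were higher and 6 lower, with a median log2 fold change of 0.06. COQ2, which attaches the isoprenoid tail of ubiquinone, rose by 0.62 and RCE1, which trims prenylated proteins, fell by 0.54. In 1205Lu 5 were higher and 7 lower (median 0.01), with FAXDC2 at a log2 fold change of 1.03 and PDSS2, a subunit of the ubiquinone tail synthase, at -0.51. Of 19 further genes of SREBP regulation, 10 were higher and 3 lower in A375 (median 0.08), led by the ubiquitin ligase subunit FBXW7 at 0.84 and the ligase RNF139 at 0.63. In 1205Lu 5 were higher and 7 lower (median 0.07), with the coactivator PPARGC1B at 0.69 and INSIG2, the paralog of INSIG1, at -0.53.

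Genes of sterol uptake, transport and esterification included 5 higher and 5 lower of 20 tested in A375 (median -0.09) and 5 and 5 of 21 in 1205Lu (median 0.01), near the shares of all genes. The lipoprotein receptor VLDLR fell by 0.62 and the lysosomal sterol carrier NPC2 rose by 0.55 on the log2 scale in A375. In 1205Lu the sterol transfer genes GRAMD1B and GRAMD1C had log2 fold changes of -1.33 and -0.80, of which GRAMD1B was at or under 1.79 CPM in all 1205Lu samples. Of 10 further liver X receptor targets tested in A375, 4 were higher and 2 lower. The log2 fold changes of the 10 ranged from -0.29 to 1.34 (median 0.36), including the phosphodiesterase SMPDL3A at 0.67. The rises of SMPDL3A and of the gene at 1.34 were at low levels. SMPDL3A was at or under 2.998 CPM in all A375 samples, and the gene at 1.34 lay below SMPDL3A in each. The levels of the other genes of this list that rose are not given here, so this limit does not extend to them. In 1205Lu 0 of 9 further liver X receptor targets were higher and 2 were lower (median 0.04). The lower genes included the sterol transporter subunit ABCG8 at -2.07, which was at 0.90 to 0.98 CPM with si-NT.

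Further genes of fatty acid synthesis, elongation and activation included 11 higher and 7 lower of 30 in A375 (median 0.13) and 2 higher and 9 lower of 29 in 1205Lu (median -0.09). ELOVL2, which elongates polyunsaturated fatty acids, fell in both lines, with log2 fold changes of -1.21 in A375 and -1.27 in 1205Lu. ELOVL7 fell by 1.01 on the log2 scale in A375, and FADS3, of the same gene cluster as FADS1 and FADS2, fell by 0.89 in 1205Lu. Of the fatty acid oxidation genes, 12 were higher and 3 lower of 22 in A375 (median 0.15), and 3 were higher and 5 lower of 21 in 1205Lu (median 0.03). PPARGC1A, a coactivator of oxidative metabolism, rose by 0.93 in A375. SLC25A20, the mitochondrial carnitine carrier, fell by 0.60 on the log2 scale in A375 and by 1.01 in 1205Lu, and ECHS1, an enoyl-CoA hydratase, fell by 0.39 in 1205Lu. Genes of these lists named for a single line were not all particular to it. FAXDC2, RCE1, PDSS2, RNF139, VLDLR, NPC2, GRAMD1B and FADS3 also passed in the other line in the same direction. PPARGC1B fell by 0.22 on the log2 scale in A375. The rest did not pass or were not tested in the other line.

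FRA1 occupancy near the members was read from the consensus peaks of the Cut&Run counts within 3 kb of the start of any annotated transcript. Such a peak was listed for 28 of the 31 members and for none of TM7SF2, HSD17B7 and ABCA1. The share of all genes with any such peak was not counted. Starts of internal transcripts were included, so not every peak lay at the main promoter. The MVD peak lay past the downstream end of MVD, and the ACLY peak with the higher A375 counts lay within ACLY. Other members, among them ACACA, FDFT1 and FADS2, also had their peak with the highest A375 counts within the gene. The corresponding peaks of ACAT2 and SREBF1 were centred at -3284 and -3630 from the nearest start, with an edge within 3 kb. A peak was counted as over IgG when every FRA1 sample held 10 counts or more and also reached 4 times the value of IgG plus 1, with no scaling of the libraries. By this rule 17 members (54.8%) had a peak over IgG in A375, beside 32.2% of 16899 genes. In 1205Lu 1 member, MVK, had such a peak, beside 4.52% of 17136 genes. With 1 IgG sample per line no test was made.

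The totals in peaks in A375 were 3354095 to 5316527 counts for FRA1 and 383994 for IgG, a ratio of 8.73 to 13.8. In 1205Lu the totals were 583750 to 897407 counts for FRA1 and 314569 for IgG, a ratio of 1.86 to 2.85. When every sample was scaled to the same total in peaks, 0 members in A375 and 1 member in 1205Lu met the same rule, beside 0.314% and 1.66% of all genes. This scaling brings the average ratio to IgG near 1 by construction, so few genes can reach 4 times IgG, and total library sizes or spike-in counts were not used here. With this scaling, the ratio to IgG was over 1 in all 3 FRA1 samples for 4 members in A375 (ACAT2, HMGCS1, MVK and SREBF2) and for 3 in 1205Lu (ACLY, MVK and PMVK). Some genes must lie over 1 after such scaling, and how many of all genes did was not counted. The chi-square per degree of freedom between FRA1 replicates was 1.06 for 1205Lu replicates 2 and 3, 1.62 and 1.90 for the other 1205Lu pairs, and 1.09 to 1.25 for the A375 pairs. Counting the 1205Lu replicates 2 and 3 as 1 sample left 1 member in 1205Lu, and the A375 pairs were not averaged.

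The HMGCS1 peak (chr5:43313071-43316194, GRCh38) had the highest counts of the members in A375, with 515, 996 and 716 counts for FRA1 and 43 for IgG. The 1205Lu samples had 24, 31 and 24 counts for FRA1 and 19 for IgG in the same peak. It held 5 AP-1 motifs, of which 4 lay within a short stretch that begins at position -1985 from a start of HMGCS1, outside any annotated gene. The INSIG1 peak (chr7:155296588-155299586) had 153, 294 and 242 counts for FRA1 and 29 for IgG in A375, and 68, 65 and 89 for FRA1 and 30 for IgG in 1205Lu. It held 2 AP-1 motifs, of which the upstream copy lay at position -753 from a start of INSIG1, in the divergent non-coding gene INSIG1-DT. The STARD4 peak had 30, 39 and 50 counts for FRA1 and 10 for IgG in A375 and did not pass the rule, and it held 1 AP-1 motif at position -443 from a start of STARD4. These stretches are shown on the plus strand of GRCh38 with the AP-1 motifs in capitals.
HMGCS1 (chr5:43315457-43315615): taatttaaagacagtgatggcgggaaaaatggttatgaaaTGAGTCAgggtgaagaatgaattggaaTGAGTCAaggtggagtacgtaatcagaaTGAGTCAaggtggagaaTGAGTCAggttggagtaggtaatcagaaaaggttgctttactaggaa
INSIG1 (chr7:155296983-155297069): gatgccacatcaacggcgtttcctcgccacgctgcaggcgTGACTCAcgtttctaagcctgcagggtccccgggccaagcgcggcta
STARD4 (chr5:111512993-111513068): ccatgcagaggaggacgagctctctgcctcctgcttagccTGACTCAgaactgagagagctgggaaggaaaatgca

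Peaks over IgG in A375 lay beside members that rose, fell or did not pass upon silencing. Of the 3 members that rose most in A375, INSIG1 had such a peak, STARD4 did not and ABCA1 had no consensus peak. HMGCS1, with the highest counts, fell by 0.22 on the log2 scale in A375 and did not pass in 1205Lu. The SREBF2 peak (chr22:41832318-41833484) covered the printed region with the sterol element and had 71, 126 and 107 counts for FRA1 and 5 for IgG in A375, but 17, 26 and 21 for FRA1 and 18 for IgG in 1205Lu. A TCACNCCAC match also lay in a peak of each of HMGCS1, SREBF1, FASN, SCD and ACLY. The peaks of FASN and SCD with the match did not pass the rule in either line, and that of ACLY lay within the gene. Peaks differed in width, and the share of all peaks with a match was not counted. SREBF2 mRNA fell in both lines. The MVK peak, which met the rule in both lines, had 106, 151 and 108 counts for FRA1 and 8 for IgG in A375 and 24, 31 and 30 for FRA1 and 2 for IgG in 1205Lu, and MVK mRNA did not pass in either line. MVK shares this start region with the divergent gene MMAB, and FADS1 and FADS2 share a peak, so these counts do not belong to a single gene.

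**Figure D4:**
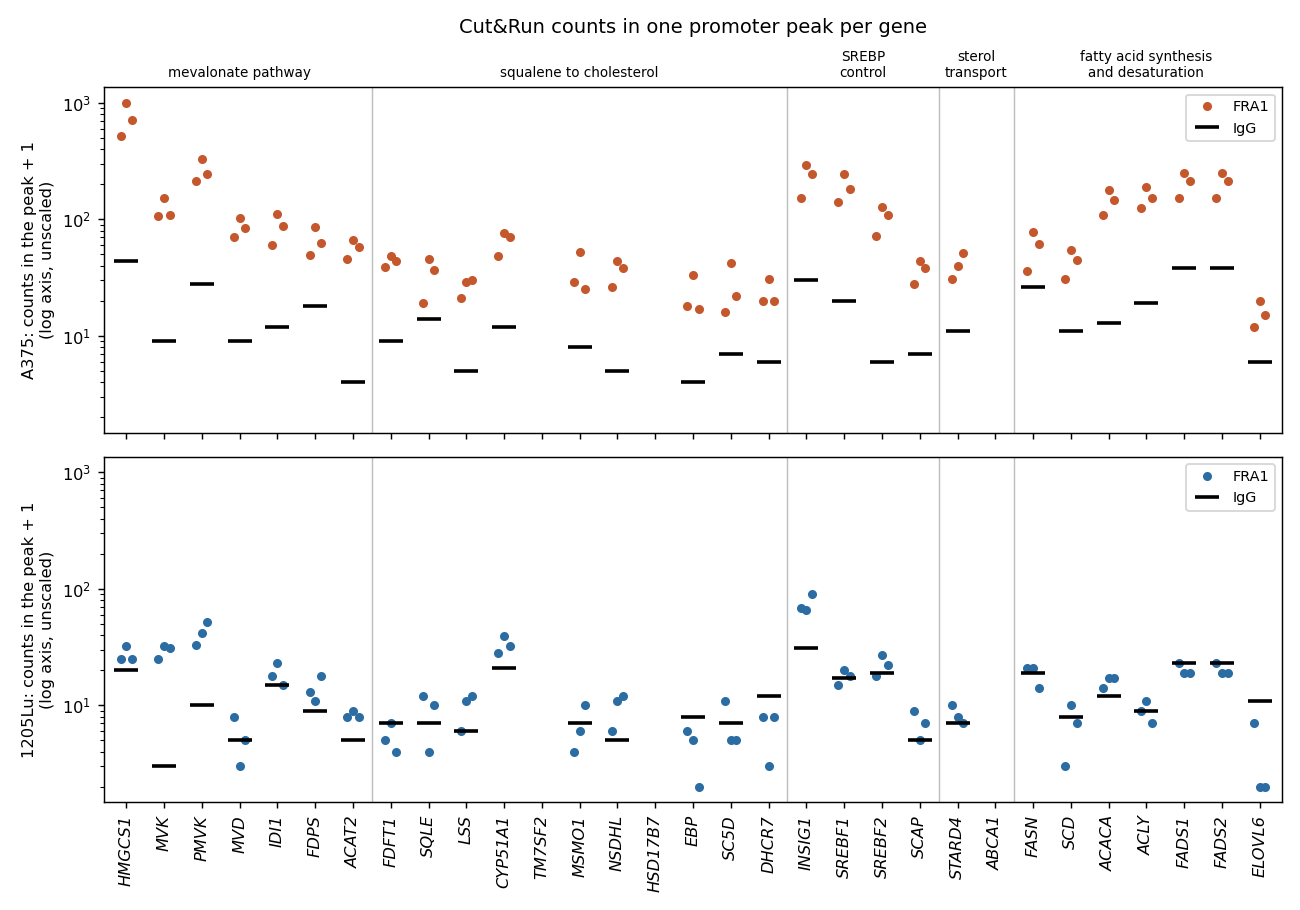
Cut&Run counts plus 1 for each member, on a log axis without scaling, with points for 3 FRA1 samples and a black dash for the IgG sample. The peak shown is that with the highest A375 FRA1 sum within 3 kb of any annotated start, which for MVD and ACLY is not at the main promoter. Peaks shown for other members, among them ACACA, FDFT1 and FADS2, lie within the gene near an internal start. Those of ACAT2 and SREBF1 are centred at -3284 and -3630 from the nearest start. HMGCS1 stands highest in A375, many 1205Lu points lie near the IgG dash, and TM7SF2, HSD17B7 and ABCA1 are empty because no consensus peak was within 3 kb.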

How the data were processed

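RNA-seq was analysed in 12 samples and Cut&Run in 8. For RNA-seq, per the labels, adapters were removed with cutadapt 1.8.1, reads were aligned to GRCh38 with STAR 2.7.7a and RSEM 1.3.0 estimated the expected count of each gene on Gencode v30. The expected counts were deposited as whole numbers and were not normalized. For Cut&Run, reads were aligned with Bowtie2 2.4.1 and peaks called with MACS2 2.1.1.20160309, and the authors deposited raw counts per consensus peak. Whether replicates were pooled for peak calling is not given in the sources used here.

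The RNA-seq counts were tested with edgeR 4.0.16 in R 4.3.3 (filterByExpr, TMM, glmQLFit, glmQLFTest, two-sided, Benjamini-Hochberg over all genes tested), on the 6 samples of a comparison and on all 12 for the interaction. SE is the absolute log2 fold change divided by the square root of F. Libraries were strand-specific, so antisense overlaps such as ACAT2 with TCP1 could be separated, but CYP51A1, TM7SF2, EBP and FADS2 overlap other coding genes on the same strand, which strand does not separate, and HSD17B7 and FDPS have pseudogene copies that may share reads. The labels do not say that replicates are separate cultures, so the p-values measure the spread between these samples, which may be technical. The samples that share a replicate number did not deviate together.

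Motifs and annotation used Python 3.11.15, pysam 0.24.0, RefSeq promoter sequences (GRCh38.p14) and GENCODE v44 on GRCh38, and all 31 identifiers matched. Cut&Run ratios to IgG carry no error beyond the range of the samples. The members and lists were chosen with earlier results of these data known. All members are named, with values per sample for those past an absolute log2 fold change of 0.5 in either line or with the 5 lowest adjusted p of the interaction, and at most 2 genes per further list and line. Some genes that this rule selects are not reported here. On simulated counts with absolute log2 changes of 1 or 2, 90 to 100 of 100 changed genes per comparison and size were recovered, with 6 to 20 false calls per comparison. Smaller changes, as most members had upon silencing, were not simulated. Alternatives were DESeq2 1.42.0, upper-quartile scaling, other filters, a fold limit, all samples in one fit, a replicate block, other rules over IgG and leaving out each sample.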

Additional observations from a re-analysis of the deposited data

Results flagged for a closer look

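The silencing effect differed between the cell lines, by the interaction test of edgeR over all 12 samples (adjusted p under 0.05), for 18 members. The log2 difference, 1205Lu effect minus A375 effect, was negative for ABCA1 (-1.21), STARD4 (-1.12), ELOVL6 (-0.76), INSIG1 (-0.71), FADS1 (-0.63), MVD (-0.58), ACAT2 (-0.57), SCD (-0.44), ACLY (-0.42), CYP51A1 (-0.30), IDI1 (-0.29), LSS (-0.28), ACACA (-0.25) and FDFT1 (-0.16). It was positive for FASN (0.28), HMGCS1 (0.25), SCAP (0.22) and SREBF1 (0.19). With 3 samples in each group, no sample was tested for standing apart from its group.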

How the results depend on the processing

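Over 206 alternative counts of members or related genes, 189 stayed within 1.5 times the reported count, and over 1683 alternative values of single genes and of the members' median 0 called values changed sign, 38 lost and 23 gained a call. With an absolute log2 fold change over 1, the members passing were 1 (1 higher, 0 lower) in A375, 0 (0 and 0) in 1205Lu and 2 (0 and 2) in the interaction, with 1 higher between the lines, and 3 and 5 related genes passed in A375 and 1205Lu. The counts upon silencing thus rest on changes below this limit. With all 12 samples in one fit, 2 members were higher in 1205Lu, the second being SREBF1. In all, 16 member results changed side at least once. PMVK in A375, FADS2 and FDFT1 in 1205Lu lost theirs in 10, 9 and 9 of 12 alternatives. Single samples decided SQLE in A375, which lost its call without si-NT replicate 3 (log2 fold change 0.08), IDI1 in 1205Lu, which lost it without si-NT replicate 3 (-0.12) or si-FRA1 replicate 3 (-0.11), and PMVK between the lines, which lost it without A375 si-NT replicate 2 (-0.29). MVK in A375 gained a call without si-NT replicate 1 (0.25), and STARD4 between the lines gained one in 5 of 10 alternatives. Leaving out each sample in turn gave 23 to 26 members in A375, 15 to 18 in 1205Lu, 29 to 31 between the lines and 18 to 20 in the interaction. The replicate numbers did not pair the samples (correlations of deviations between -0.04 and 0.05), and a replicate block gave 24, 18 and 19 members in A375, 1205Lu and the interaction. For Cut&Run in A375, 8 times IgG left 5 members and scaling to the same total left 0. In 1205Lu, 2 times IgG gave 5 members, and leaving out each FRA1 sample gave 1 to 2, with 2 without replicate 1.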
